A study of Mus musculus with 12 samples.

Results

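Active promoters without an Eed summit were 566 promoter windows in the forebrain of mouse embryos at embryonic stage E12.5 (days after conception). Each window spans 2 kb around an annotated start site. A window was taken when its centre lay within 1 kb of a summit of wild type H3K27ac and of no summit of wild type Eed and no summit of wild type H3K27me3. They were 1.02% of the 55385 windows and 11.3% of the 5011 active windows, meaning those near an H3K27ac summit but no H3K27me3 summit. The other 4445 active windows had an Eed summit within 1 kb and served as the comparison. Wild type H3K27ac, Eed and H3K27me3 chose the windows, so these 3 readouts are described and support nothing; RNA-Pol2, the controls, the EedcKO libraries, gene type and sequence were not used in the choice.

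The study mapped chromatin in untreated C57BL/6 forebrain of wild type embryos and of embryos of the genotype EedcKO. Eed and its input were measured by X-ChIP, which precipitates cross-linked chromatin, and H3K27me3, H3K27ac, RNA polymerase II (RNA-Pol2) and IgG by CUT&Tag, in which an antibody guides a transposase. There was 1 library per genotype and target, 12 in all, so differences lie between single libraries, without replicates and without p-values. For the EedcKO, the Cre driver, the deleted part of Eed and the number of embryos per library were not given in the sources used here. In bulk tissue, fewer cells with a mark and less of the mark per cell cannot be told apart.

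Eed is a core subunit of Polycomb repressive complex 2, which writes H3K27me3, and Eed itself binds that mark. H3K27ac sits on the same lysine at active promoters and enhancers, so that a single histone tail cannot carry both. CpG-rich promoters without strong transcription are the classic sites of this complex in mammals, and active CpG-rich promoters usually lack its mark.

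The totals of reads in promoter windows ranged from 948955 in EedcKO input to 3842779 in EedcKO RNA-Pol2. RPKM here is reads per kb of window, scaled in the usual way to the library's total of promoter reads. The wild type Eed list held 61019 summits and the wild type H3K27me3 list 10662. Each of 2 EedcKO libraries was closer to another wild type target than to the one on its label. Over all windows the library labelled EedcKO H3K27ac followed H3K27me3 of the wild type at 0.936 and its H3K27ac at 0.680 (Pearson's r over 55385 windows, which share library depth). The library labelled EedcKO H3K27me3 followed RNA-Pol2 of the wild type at 0.931, its H3K27ac at 0.867 and its H3K27me3 at 0.736. With EedcKO IgG this library stood at 0.871 and the library labelled EedcKO H3K27ac at 0.673. Whether either library was mislabelled was not tested. Within the 566 windows the wild type targets stood in the same order, at 0.729 against 0.285 for the first library, and at 0.798, 0.503 and 0.325 for the second. EedcKO IgG stood at 0.364 and 0.407. Wild type H3K27ac and H3K27me3 chose these windows, so the values within them are a description and support nothing. Both libraries are called by their labels throughout. Marker lists of microglia, endothelium, erythroid cells, mesenchyme, oligodendrocytes, astroglia and choroid plexus held 0 of the 566 windows; only 1 of their windows, of the mesenchyme list, was active at all, so this says nothing of those cells. Of 35 windows of cortical progenitor genes 6 were active, 3 had a summit of both H3K27 marks and 13 of H3K27me3 alone.

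The promoter sequence, which the choice did not use, held fewer CpG than at active promoters with an Eed summit. The 300 bases around the start site are shown for 7 of them, the first in rank order by H3K27ac and by RNA-Pol2 over IgG, and for 2 active promoters with an Eed summit (Hdlbp, an RNA-binding protein gene, and Arpc4, an actin-nucleating Arp2/3 subunit gene). Sequences are from RefSeq, build GRCm38.p6, printed on the strand of the gene from 250 bases before to 50 after the start, with each CpG in capitals. They lie at chr16:45724482-45724781 (Tagln3), chr19:10203952-10204251 (Tmem258), chr8:113635336-113635635 (Mon1b), chr17:24724374-24724673 (Ndufb10), chr3:135437982-135438281 (Ube2d3), chr11:106789136-106789435 (Ddx5), chr16:94370966-94371265 (Pigp), chr1:93478868-93479167 (Hdlbp) and chr6:113377863-113378162 (Arpc4). Tmem258, Mon1b, Ube2d3 and Arpc4 are on the plus strand and the others on the minus strand. The RefSeq start site of Pigp lies off the centre of its window but within 1 kb of it. The first 4 promoters hold 11 to 21 wild type Eed reads, fewer than input.
Tagln3: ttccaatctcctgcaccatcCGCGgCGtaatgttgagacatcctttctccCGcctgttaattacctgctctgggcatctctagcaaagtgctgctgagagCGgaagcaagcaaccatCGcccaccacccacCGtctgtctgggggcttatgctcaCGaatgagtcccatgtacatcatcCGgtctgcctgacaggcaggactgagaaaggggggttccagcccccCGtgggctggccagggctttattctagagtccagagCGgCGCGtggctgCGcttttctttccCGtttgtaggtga
Tmem258: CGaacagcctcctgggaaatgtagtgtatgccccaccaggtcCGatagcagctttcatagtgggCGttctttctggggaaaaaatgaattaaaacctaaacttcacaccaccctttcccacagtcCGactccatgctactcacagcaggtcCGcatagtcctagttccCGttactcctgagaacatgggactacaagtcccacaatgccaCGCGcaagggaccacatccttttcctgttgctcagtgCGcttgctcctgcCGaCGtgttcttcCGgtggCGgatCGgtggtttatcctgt
Mon1b: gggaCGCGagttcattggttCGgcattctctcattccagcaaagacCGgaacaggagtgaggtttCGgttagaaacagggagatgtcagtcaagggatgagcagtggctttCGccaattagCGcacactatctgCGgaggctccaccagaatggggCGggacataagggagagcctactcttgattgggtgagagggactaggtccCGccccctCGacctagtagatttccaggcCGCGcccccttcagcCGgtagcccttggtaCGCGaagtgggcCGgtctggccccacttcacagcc
Ndufb10: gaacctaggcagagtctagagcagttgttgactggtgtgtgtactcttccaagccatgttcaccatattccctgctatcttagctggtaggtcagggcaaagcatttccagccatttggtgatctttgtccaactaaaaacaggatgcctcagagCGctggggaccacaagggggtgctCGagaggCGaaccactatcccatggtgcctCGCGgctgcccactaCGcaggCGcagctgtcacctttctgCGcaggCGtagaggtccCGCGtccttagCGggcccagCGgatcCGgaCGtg
The next 3 have no Eed summit within 1 kb, yet hold 127 to 156 wild type Eed reads and have an Eed summit 1078 to 1467 bp away.
Ube2d3: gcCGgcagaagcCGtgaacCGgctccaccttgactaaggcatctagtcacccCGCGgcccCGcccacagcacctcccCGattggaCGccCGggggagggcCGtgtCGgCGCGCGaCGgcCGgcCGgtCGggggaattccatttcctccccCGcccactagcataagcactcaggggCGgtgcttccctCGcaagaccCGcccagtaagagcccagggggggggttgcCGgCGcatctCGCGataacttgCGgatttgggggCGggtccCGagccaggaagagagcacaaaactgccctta
Ddx5: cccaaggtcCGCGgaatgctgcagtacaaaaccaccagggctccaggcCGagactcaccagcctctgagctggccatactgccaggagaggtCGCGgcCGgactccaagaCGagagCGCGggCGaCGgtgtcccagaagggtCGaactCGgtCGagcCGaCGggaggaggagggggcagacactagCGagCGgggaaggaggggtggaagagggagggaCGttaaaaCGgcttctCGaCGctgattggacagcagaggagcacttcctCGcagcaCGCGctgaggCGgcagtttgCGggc
Pigp: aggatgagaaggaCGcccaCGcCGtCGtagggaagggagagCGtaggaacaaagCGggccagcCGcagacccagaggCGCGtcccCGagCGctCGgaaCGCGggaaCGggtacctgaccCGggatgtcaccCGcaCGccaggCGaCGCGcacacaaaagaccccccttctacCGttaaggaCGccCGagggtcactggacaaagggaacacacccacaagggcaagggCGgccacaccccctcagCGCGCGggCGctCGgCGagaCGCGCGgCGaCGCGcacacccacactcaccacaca
The last 2 are active promoters with an Eed summit.
Hdlbp: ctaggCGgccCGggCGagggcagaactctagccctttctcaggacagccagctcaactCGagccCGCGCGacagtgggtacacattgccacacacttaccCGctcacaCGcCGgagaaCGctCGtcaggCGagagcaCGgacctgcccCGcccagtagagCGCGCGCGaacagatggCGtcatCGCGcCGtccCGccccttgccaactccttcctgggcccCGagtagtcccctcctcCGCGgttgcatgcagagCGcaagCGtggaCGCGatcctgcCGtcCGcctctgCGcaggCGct
Arpc4: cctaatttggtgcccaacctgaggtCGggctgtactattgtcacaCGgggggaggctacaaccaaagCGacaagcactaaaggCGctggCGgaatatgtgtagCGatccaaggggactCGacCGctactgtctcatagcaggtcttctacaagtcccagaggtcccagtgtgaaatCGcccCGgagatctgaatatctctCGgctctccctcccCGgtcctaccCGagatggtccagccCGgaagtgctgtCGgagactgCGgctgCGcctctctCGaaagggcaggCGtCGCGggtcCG
The first 4 promoters hold 15, 14, 17 and 15 CpG. Ube2d3, Ddx5 and Pigp hold 29, 27 and 37, and Hdlbp and Arpc4 35 and 22.

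Over the protein-coding windows the same difference was measured. A RefSeq promoter with its start within 1000 bp of the centre was found for 323 of 382 protein-coding windows without an Eed summit (84.6%) and for 3092 of 3683 with one (84.0%). The median was 16 CpG (quartiles 12 to 21) without an Eed summit and 25 (19 to 31) with one. GC content had a median of 57.0% against 63.7%. Over the 21262 protein-coding promoters of the RefSeq table, active or not, the median was 13 CpG (quartiles 4 to 24) and 56.3% GC. The share of active windows that lacked an Eed summit fell with the CpG count. It was 15 of 30 windows with 0 to 4 CpG (50%, exact 95% interval 31.3 to 68.7), 17.1% of 590 windows with 15 to 19 CpG (14.2 to 20.4), 6.47% of 726 with 20 to 24, and 1.90% of 947 with 30 or more (1.13 to 2.99). In the highest class, the 18 windows without an Eed summit still had a median of 144 Eed reads, beside 145 at those with one, whereas the lower classes had 8 to 18 beside 69.5 to 110. These intervals, like all others here, cover counting error only. Wild type input had medians of 25 to 30 reads over the CpG classes without an Eed summit and of 21 to 27 with one. Both were lowest in the class of 0 to 4 CpG. The part of input depth in this trend was not tested.

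**Figure D1:**
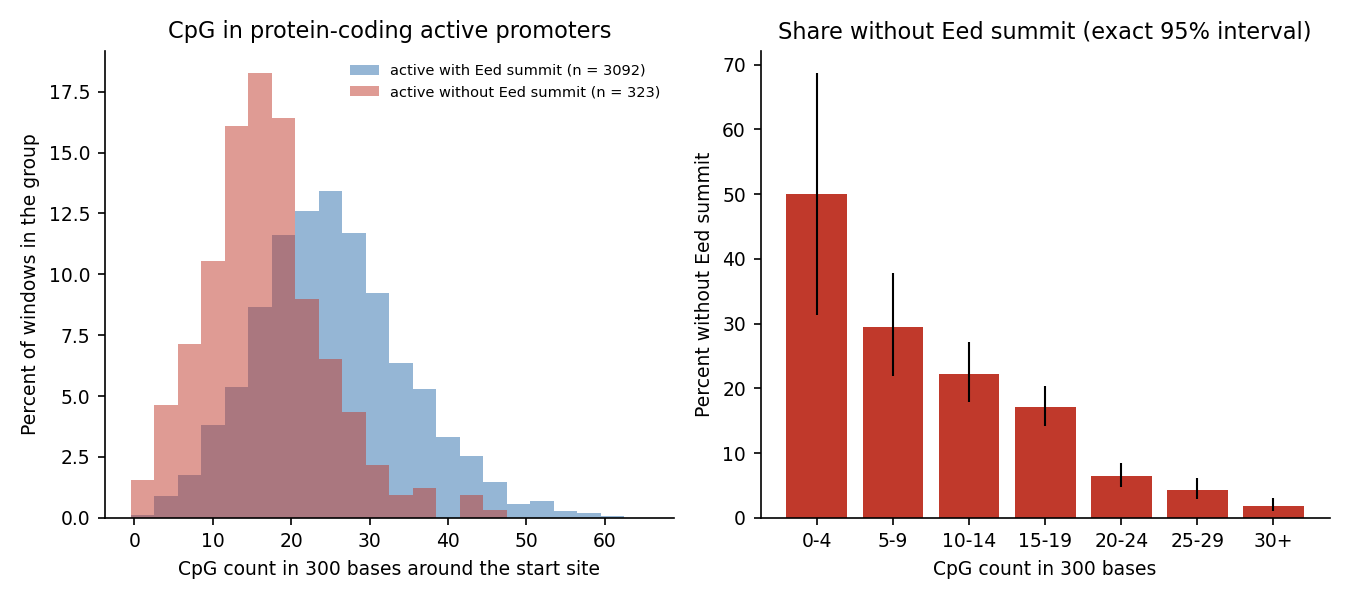
CpG counts in 300 bases around the start site of protein-coding active promoters. Left, percent of windows by CpG count, without (red, n = 323) and with (blue, n = 3092) an Eed summit; right, percent of active windows without an Eed summit in each CpG class, with exact 95% intervals, from 50% in the lowest class to 1.90% in the highest.

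Short motifs were counted on both strands of the same 323 and 3092 promoters. The GC box GGGCGG, which binds Sp-family factors and itself contains a CpG, was present on either strand in 47.7% of promoters without and 73.9% with an Eed summit, against 46.2% of the 21262 protein-coding RefSeq promoters. CCAAT, the NF-Y motif, stood in 48.0% and 38.3% (38.2% of the RefSeq promoters). The TATA motif TATAAA stood in 8.05% and 4.37% (12.6% of the RefSeq promoters), and the ETS motif CCGGAAG, which also holds a CpG, in 20.4% and 24.7% (11.6% of the RefSeq promoters). The CRE motif TGACGTCA and the E box CACGTG, each with a CpG, stood in 4.64% and 8.98% without an Eed summit and in 4.75% and 11.1% with one (2.23% and 7.84% of the RefSeq promoters). A match of letters is a description and not a bound site.

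Wild type Eed was scarce over most of these windows, which the choice favours. The windows held a median of 13 Eed reads beside 26 input reads, against 106 and 27 at active promoters with an Eed summit. In RPKM this was 3.29 against 26.9, and the median over all windows was 2.79. Eed was below input at 506 of 566 windows (89.4%, against 71.4% of all windows), with a median log2 ratio of Eed to input of -1.74 against 1.01 with an Eed summit. At 43 windows Eed was at least 2-fold above input (7.60%, against 13.7% of all windows). All 43 lay within 2000 bp of an Eed summit, and 40 of them within 1500 bp, so that each had an Eed summit just beyond the 1 kb limit.

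**Figure D2:**
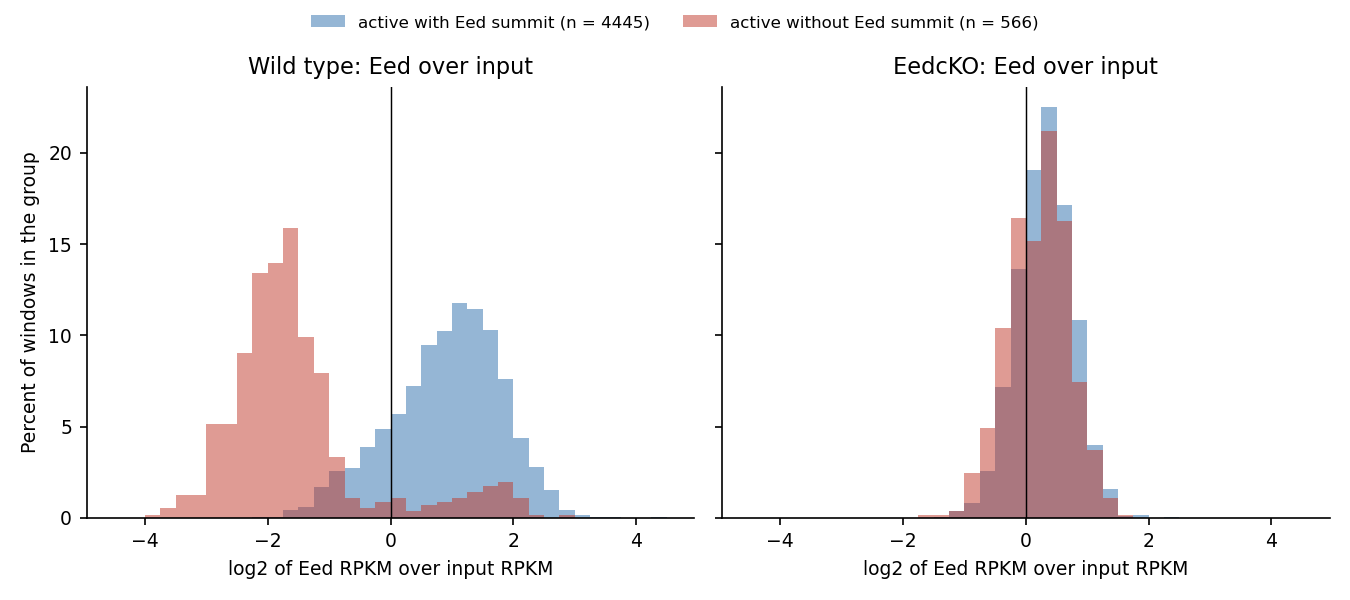
Log2 ratio of Eed to input RPKM (pseudocount 0.5 RPKM) per window, as percent of windows, in wild type (left) and EedcKO (right), for active promoters without (red, n = 566) and with (blue, n = 4445) an Eed summit. In wild type the groups, chosen on this library, have medians of -1.74 and 1.01; in EedcKO they overlap, with medians of 0.24 and 0.31.

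Distance to the nearest Eed summit had a median of 8454.5 bp, with quartiles at 2928 and 19682.5 bp and a maximum of 105448 bp. The 90 windows between 1000 and 1500 bp had a median of 88.5 Eed reads, and the 25 between 1500 and 2000 bp had 15. Each class beyond 2000 bp had a median of 11 or 12 reads. Beyond 3000 bp, 422 windows had at most 29 Eed reads. Hnrnpdl, an RNA-binding protein gene 1050 bp from an Eed summit, had the highest ratio of Eed to input, with 272 Eed and 26 input reads (log2 2.39). Enoph1, a methionine salvage enzyme gene whose window overlaps it, had 213 and 27. Lpxn, a focal adhesion adaptor gene, Fgfr2, an FGF receptor gene, Ppp3ca, the catalytic subunit gene of calcineurin, and Nufip2 followed with 120 to 303 Eed reads at 1036 to 1428 bp. At the other end Smarcal1, an annealing helicase gene, had 3 Eed and 35 input reads (log2 -3.81) and lay 18778 bp from a summit. Tm9sf4, Alg14, Zkscan5 and Zfp719 had 3 to 5 Eed reads beside 27 to 38 of input.

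**Figure D3:**
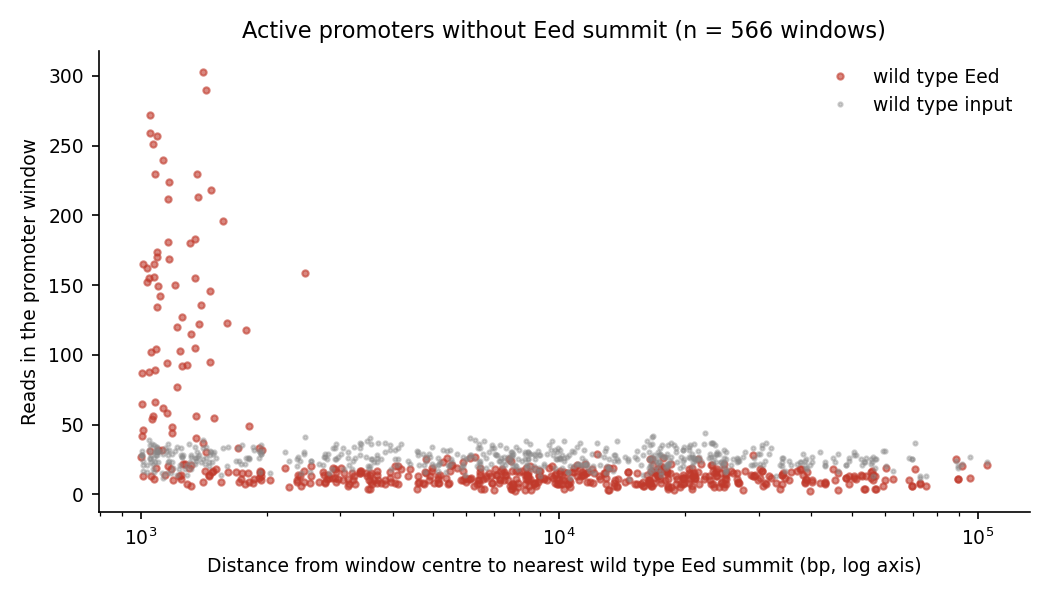
Reads in each of the 566 windows against the distance to the nearest wild type Eed summit (log axis), for wild type Eed (red) and wild type input (grey). High Eed counts stand close to the 1000 bp limit, and beyond 3000 bp Eed counts reach at most 29.

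Counts on either side of each limit overlapped. Inside means kept among the 566 windows, so farther than the limit for Eed and H3K27me3 but nearer than it for H3K27ac. Outside means left out. Just inside the Eed limit were Serpini1 at 1004 bp with 65 Eed reads, the overlapping pair Dnajc14 and Tmem198b, of which Tmem198b lay at 1009 bp with 42, and Dap3 at 1011 bp with 165. Just outside were N4bp2l2 at 1000 bp with 20, Sult2b1 at 998 bp with 68 and Lsamp at 995 bp with 16. At the H3K27ac limit Fer (994 bp, 76 H3K27ac reads), Gmfg (982 bp, 82) and Chrna4 (962 bp, 104) were inside, and Mfap4 (1005 bp, 121), Hyal2 (1007 bp, 137) and Hp1bp3 (1013 bp, 92) outside. At the H3K27me3 limit St3gal6 (1136 bp, 92 H3K27me3 reads), Fgfr2 (1259 bp, 92) and Cav1 (1414 bp, 216) were inside, and Sox6 (951 bp, 349) and Cirbp (895 bp, 79) outside. Over all 566 windows the median distance to an H3K27me3 summit was 102786 bp.

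In the EedcKO Eed library both groups held similar counts. The windows held a median of 40 Eed reads, beside 44 at active promoters with a wild type Eed summit, and 23 input reads in both groups. The log2 ratio of Eed to input was 0.24 against 0.31, and 0 over all windows. Eed was below input at 198 windows (35.0%, against 49.6% of all windows) and at least 2-fold above it at 28 (4.95%, against 4.66%). A summit of EedcKO Eed stood within 1 kb of 22.8% of the windows without a wild type Eed summit (exact 95% interval 19.4 to 26.5), 23.1% of those with one (21.9 to 24.3) and 9.4% of all windows. Between genotypes, 285 windows were at least 2-fold higher in EedcKO relative to the median window (50.4%, against 22.6% of all tested) and 55 at least 2-fold lower (9.72%, against 30%). By totals alone 453 were higher (80.0%, against 47.2%) and 37 lower (6.54%, against 14.7%). Wild type Eed chose these windows, and nothing is read from that contrast.

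Wild type H3K27ac, the mark that chose them, had a median of 90 reads here and 96 at active promoters with an Eed summit, and 26 IgG reads against 24. It was below IgG at 3 windows (0.530%, against 59% of all) and at least 2-fold above at 394 (69.6%, against 14.8%). The authors' summit score had a median of 5.36 against 6.15. H3K27me3 had a median of 41 reads against 45, and its log2 ratio to IgG was -0.45 against -0.23, with 422 of 566 windows below IgG (74.6%, against 76.5% of all windows). In the library labelled EedcKO H3K27ac the windows had a median of 39 reads against 41, and a summit at 1.94% (exact 95% interval 0.974 to 3.45) against 2.23% and 5.92% of all windows. The same library had a summit at 79.5% of windows marked by H3K27me3 alone in wild type. In the library labelled EedcKO H3K27me3 they had 51 reads against 61, and a summit at 5.30% (3.60 to 7.48) against 8.53% and 1.18% of all windows.

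Set against wild type, the library labelled EedcKO H3K27ac was at least 2-fold higher at 4 windows relative to the median window (0.707%, against 18.2% of all tested) and lower at 272 (48.1%, against 11.7%). By totals it was higher at 4 (0.707%, against 7.9%) and lower at 538 (95.1%, against 51.6%). The library labelled EedcKO H3K27me3 was higher at 72 (12.7%, against 6.8%) and lower at 13 (2.30%, against 13%), and by totals higher at 333 (58.8%, against 41%) and lower at 5 (0.883%, against 6.45%). Both wild type libraries were used to choose the windows and both EedcKO labels are in doubt, so nothing is read from these counts. Cav1, the caveolin gene, shows the first library: 216 wild type H3K27me3 and 72 H3K27ac reads stood beside 313 reads in the library labelled EedcKO H3K27ac and 49 in the library labelled EedcKO H3K27me3.

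**Figure D4:**
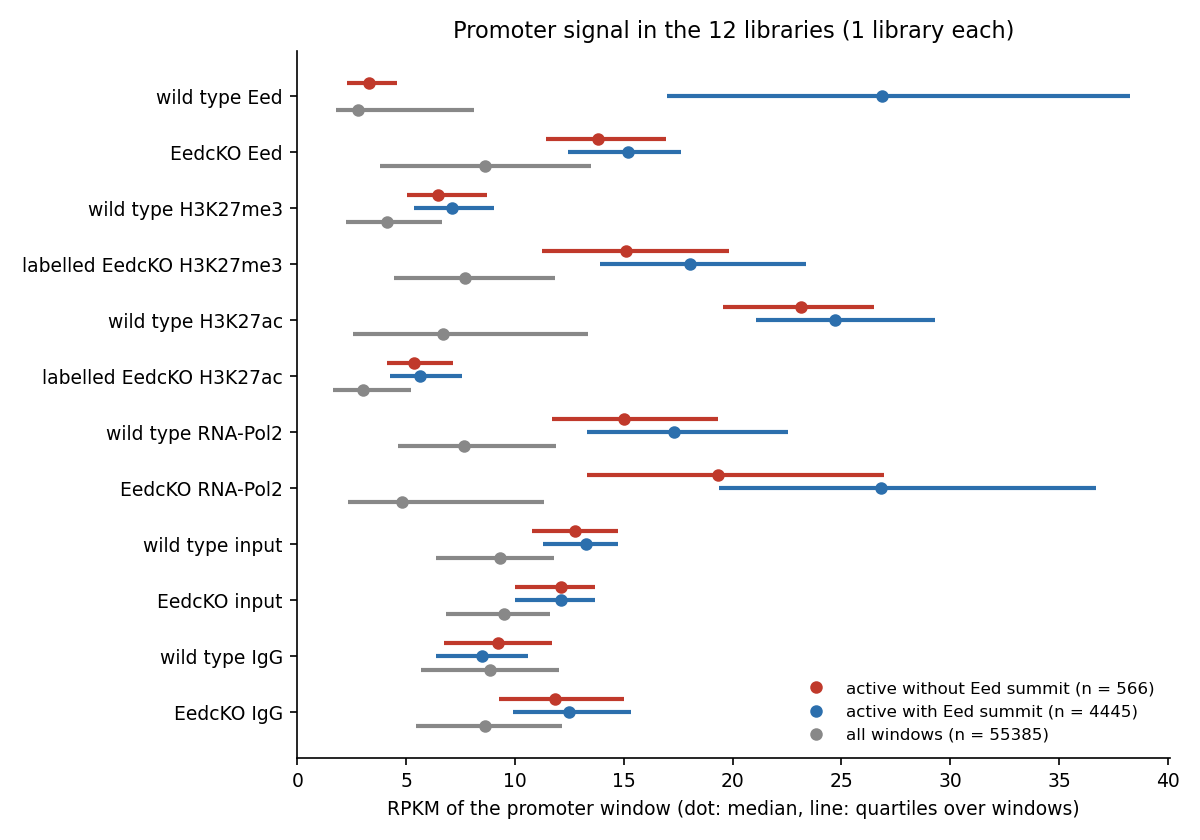
RPKM of the promoter window in each of the 12 libraries for active promoters without (red) and with (blue) an Eed summit and all windows (grey); dots are medians and lines quartiles over windows, not replicate error. Wild type Eed is where the red and blue groups part most, at 3.29 and 26.9 RPKM.

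In the median over each group, RNA-Pol2, which the choice did not use, was lower at these promoters than at active promoters with an Eed summit. Wild type RNA-Pol2 had a median of 74.5 reads (15.01 RPKM) against 86 (17.3 RPKM), and 7.65 RPKM over all windows. The log2 ratio to IgG was 0.69 against 0.99. RNA-Pol2 was at least 2-fold above IgG at 189 of 566 windows (33.4%, against 10.8% of all windows) and below IgG at 89 (15.7%, against 57.1%). By CpG class of protein-coding windows, in steps of 5 from 0 to 4 CpG up to 30 or more, the order varied. Without an Eed summit the RNA-Pol2 medians were 16.3, 15.8, 14.7, 16.5, 15.3, 15.2 and 22.3 RPKM. With one they were 13.7, 15.9, 15.7, 16.9, 17.3, 17.3 and 18.7 RPKM. A wild type RNA-Pol2 summit lay within 1 kb of 112 windows, or 19.8% (exact 95% interval 16.6 to 23.3), against 33.3% with an Eed summit (31.9 to 34.7) and 4.92% of all windows. With 500 bp in place of 1 kb for the summit lists of the choice, the windows numbered 883. The share with an RNA-Pol2 summit, still within 1 kb, was 33.7% against 32.5% with an Eed summit, so this gap rests on the distance chosen. At 2000 bp the shares were 13.5% and 31.4%.

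EedcKO RNA-Pol2 was the deeper library and had more summits. It was at least 2-fold above IgG at 218 windows (38.5%, against 11.1% of all) and below it at 114 (20.1%, against 64.5%), with a median log2 ratio of 0.76 against 1.12 with an Eed summit. A summit stood at 391 windows, or 69.1% (65.1 to 72.9), against 91.5% with an Eed summit (90.6 to 92.3) and 19.7% of all windows. Among protein-coding windows the shares were 79.1% and 91.8%, and among the others 48.4% and 89.9%. By CpG class of protein-coding windows, in steps of 5 from 0 to 4 CpG up to 30 or more, the shares without a wild type Eed summit (15 to 101 windows a class) were 53.3, 62.5, 68.9, 91.1, 97.9, 92.9 and 77.8%. With one they were 80, 76.0, 86.4, 90.8, 92.6, 95.8 and 94.8%, so the share was lower without an Eed summit in 5 of 7 classes. EedcKO RNA-Pol2 reads fell with distance from a wild type Eed summit, from a median of 204 in windows at 1000 to 1500 bp to 111 beyond 20000 bp. Wild type input, which is not the control of RNA-Pol2, had medians of 25 to 27.5 reads in these classes. IgG by distance was not computed. Wild type RNA-Pol2 went from 91.5 to 66 over the same classes.

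Scaled by totals, RNA-Pol2 in EedcKO over wild type had a median log2 ratio of 0.38 here, 0.62 with an Eed summit and -0.41 over all tested windows. Relative to that all-window median it was 0.79 here and 1.03 with an Eed summit. In the same CpG classes of protein-coding windows, the relative medians without an Eed summit were 0.39, 0.88, 0.78, 0.91, 0.96, 1.04 and 1.06. With one they were 0.86, 0.79, 0.95, 0.97, 1.01, 1.07 and 1.12. At least 2-fold higher were 182 of 566 windows (32.2%, against 12.2% of all tested) and at least 2-fold lower 1 window (0.177%, against 7.86%). By totals alone 26 windows were higher (4.59%, against 2.42%) and 2 lower (0.353%, against 21.1%). Of protein-coding windows 149 of 382 were higher (39.0%, relative median 0.87) and of the others 33 of 184 (17.9%, 0.57). IgG moved the same way, with a relative median of 0.41 here and 0.56 with an Eed summit; its part in the result was not tested. RNA-Pol2 over IgG of the same genotype had a log2 median of 0.69 in wild type and 0.76 in EedcKO. Taken window by window and less the IgG ratio, the RNA-Pol2 log2 ratio by totals had a median of -0.06 here, 0.07 with an Eed summit and -0.34 over all tested windows. By it 31 windows were at least 2-fold higher (5.48%, against 4.5% of all tested) and 42 lower (7.42%, against 19.8%). Relative to its all-window median, an alternative chosen after seeing the data, the ratio was 0.29 here and 0.41 with an Eed summit, with 66 windows higher (11.7%, against 9.83%) and 9 lower (1.59%, against 10.3%).

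**Figure D5:**
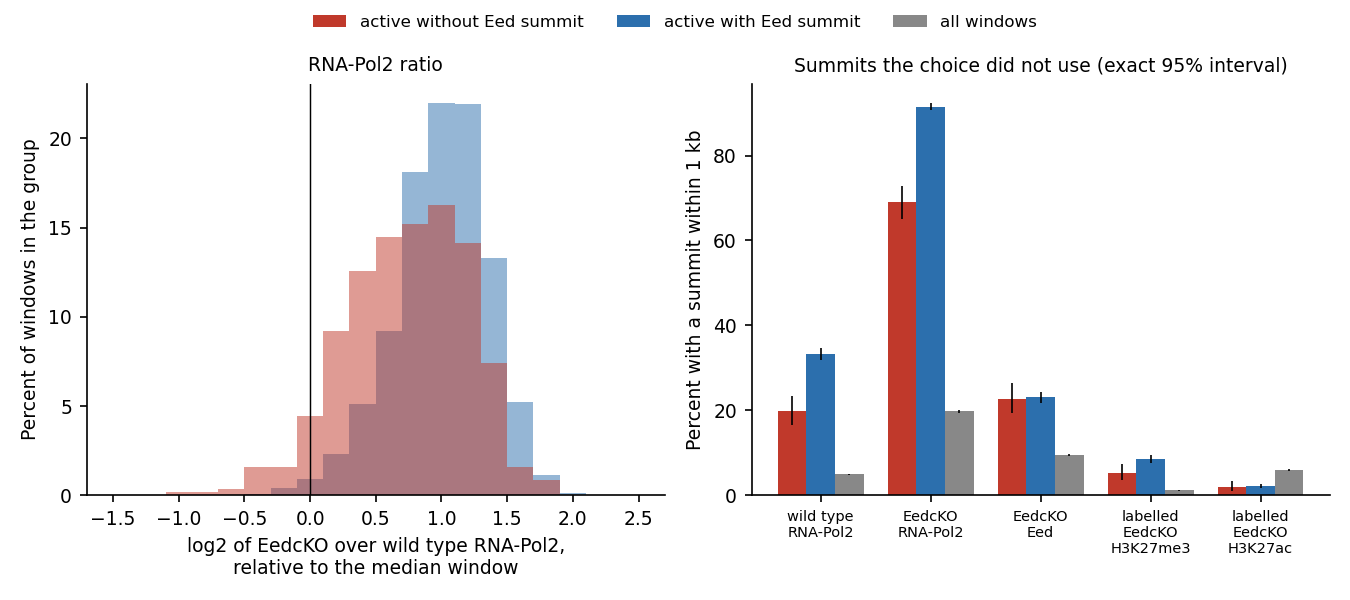
Left, log2 ratio of EedcKO to wild type RNA-Pol2 per window relative to the median of all tested windows, as percent of windows, for active promoters without (red) and with (blue) an Eed summit, with medians of 0.79 and 1.03. Right, percent of windows with a summit of the named library within 1 kb and exact 95% intervals, with all windows in grey; the largest gap is EedcKO RNA-Pol2, at 69.1% and 91.5%.

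Stx5a, a syntaxin gene of transport between endoplasmic reticulum and Golgi (chromosome 19, 8740413 to 8742412), had the largest RNA-Pol2 ratio among protein-coding windows with at least 20 reads. It went from 98 to 427 RNA-Pol2 reads (relative log2 ratio 1.88, interval 1.58 to 2.24) with 26 IgG reads in both genotypes. It had 6 Eed reads in wild type and 58 in EedcKO, beside 34 and 21 of input. Wild type H3K27ac had 109 and H3K27me3 22 reads, and the libraries labelled EedcKO H3K27ac and EedcKO H3K27me3 had 43 and 87. Sp3, a GC-box-binding factor gene with 257 Eed reads and an Eed summit at 1095 bp, went from 68 to 281 reads (1.80, 1.44 to 2.23). Pes1, needed for ribosome assembly, went from 27 to 111 (1.74), and Sdhaf3, an assembly factor of respiratory complex II, from 24 to 93 (1.65); in wild type both had about as many IgG reads, 22 and 27. Cog4, a Golgi tether gene, went from 36 to 142 and Sf3b3, a splicing factor gene whose window overlaps it, from 33 to 140, so that both share reads.

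The lowest ratios were small in size. Krtap10-4, a keratin-associated protein gene, went from 66 to 55 reads (-0.44, -1.03 to 0.06). Pik3r6, Klhl1, Prelid2 and St3gal6 had relative log2 ratios of -0.41 to -0.24, and each interval included 0. Wild type RNA-Pol2 of these 5 windows stood beside 29 to 50 IgG reads. The 1 window past 2-fold lower was Gm29682, a lncRNA gene named after its values were seen, with 61 reads in wild type and 33 in EedcKO beside 40 and 39 of IgG.

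The genes with the most H3K27ac were of many kinds. Ube2d3, a ubiquitin-conjugating enzyme gene (window chromosome 3, 135437149 to 135439148), led with 199 reads. It had 156 Eed reads in wild type and 26 in EedcKO, 239 and 584 of RNA-Pol2, and 20 and 45 of IgG, and an Eed summit at 1078 bp. Tagln3, a neuronal actin-binding protein gene (chromosome 16, 45723608 to 45725607), had 176 H3K27ac, 29 H3K27me3, 11 Eed, 20 input, 94 RNA-Pol2 and 23 IgG reads in wild type. In EedcKO it had 45 Eed, 12 input, 214 RNA-Pol2 and 30 IgG reads, with 40 and 61 in the libraries labelled H3K27ac and H3K27me3. Its nearest Eed summit was 18223 bp away.

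Tmem258, a subunit of the oligosaccharyltransferase, had 169 H3K27ac reads in a window that overlaps that of Fen1, the flap endonuclease of DNA replication (163). Mon1b, of the complex that activates Rab7 on endosomes, had 166, and Ensa, an inhibitor of the phosphatase PP2A in mitosis, had 158. Tmem176a and the overlapping Tmem176b had 158 and 156, Selenow, a selenoprotein gene, 158, Rab30, a Golgi GTPase gene, 153, Cdk20, a kinase gene, 148, and Pan2, of a poly(A) deadenylase, 146. These 10 windows, Fen1 and Tmem176b included, had 7 to 21 Eed reads beside 21 to 42 of input, unlike Ube2d3.

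By RNA-Pol2 over IgG the first was Ddx5, an RNA helicase gene, with 185 RNA-Pol2 and 10 IgG reads in wild type and 475 and 32 in EedcKO. Its window overlaps that of Cep95, a centrosomal protein gene. Pigp, of the first step of GPI anchor synthesis, had 209 RNA-Pol2 reads, and Ndufb10, of respiratory complex I, had 101 with 6 IgG reads. Zfp651, a zinc finger gene 1083 bp from an Eed summit, had 468 RNA-Pol2 reads, the most of the 566 windows. Ankfy1, an endosomal Rab5 effector gene, Ptms, the parathymosin gene, and Tm7sf2, a sterol reductase gene, had 180, 132 and 155 RNA-Pol2 reads with 8 to 16 Eed reads.

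Gene functions were described by lists, read against the 11.3% of all active windows that lacked an Eed summit. That share was 9.40% of protein-coding active windows (exact 95% interval 8.52 to 10.3) and 19.5% of the other active windows. The lists were not split by gene type. Respiratory chain and ATP synthase genes had 8 of 39 active windows without an Eed summit (20.5%, exact 95% interval 9.30 to 36.5). Among them, Ndufa8 had 106 H3K27ac and 18 Eed reads, Uqcr10 had 91 and 7, and Ndufaf7 had 88 and 14. This list was taken by symbol prefix, and its windows without an Eed summit include Ndufaf7 and Sdhaf3, which are assembly factor genes. Mitochondrial ribosomal protein genes had 6 of 37 (16.2%, 6.19 to 32.0), led by Mrpl32 with 94 H3K27ac reads. The list of cytosolic ribosomal protein genes, taken by symbol prefix, had 6 of 45 (13.3%, 5.05 to 26.8). Its active windows with an Eed summit include Rps6kc1, which is not a ribosomal protein gene. Rps18, Rpl4 and Rps27a of this list, without an Eed summit, had 89 to 106 H3K27ac and 6 to 19 Eed reads. Zinc finger genes had 23 of 131 (17.6%, 11.5 to 25.2), with Zfp78 at 115 H3K27ac and 10 Eed reads.

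Translation factors and tRNA synthetases had 1 of 49 (2.04%, 0.0517 to 10.9), Eef1g, an elongation factor gene with 132 H3K27ac and 13 Eed reads. Kinesin, dynein and tubulin genes had 0 of 32, for which the interval reaches 10.9%. Splicing and RNA-binding genes had 4 of 74 (5.41%, 1.49 to 13.3), of which Hnrnpdl and Ddx5 had an Eed summit within 1500 bp and Prpf4 and Sf3b3 did not. Ubiquitin and proteasome genes had 9 of 128 (7.03%), membrane traffic genes 6 of 95 (6.32%), solute carriers 5 of 56 (8.93%) and RNA polymerase, Mediator and TFIID genes 4 of 33 (12.1%). Housekeeping genes had 3 of 12 (25%, 5.49 to 57.2), and of these Gapdh, the glycolytic enzyme, had 94 H3K27ac and 14 Eed reads, 148 RNA-Pol2 reads in wild type and 461 in EedcKO, at 1250 bp from an Eed summit.

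The RNA-Pol2 ratio of these lists was described by counts beside the 32.2% of all 566 windows and the 12.2% of all tested. Of the 566 windows, 39.0% of the protein-coding ones and 17.9% of the others were at least 2-fold higher. At least 2-fold higher in EedcKO were 4 of 6 ribosomal protein, 2 of 6 mitochondrial ribosomal protein, 3 of 8 respiratory chain, 9 of 23 zinc finger and 4 of 4 splicing windows. None of these windows was 2-fold lower. Median relative log2 ratios were 1.224, 0.85, 0.83, 0.80 and 1.23. Elsewhere among the named genes Emc7, of the membrane protein insertion complex, stood at 1.64 (40 and 150 RNA-Pol2 reads) and Selenow at 1.55 (70 and 244), whereas Sec61g, a translocon subunit gene, stood at 0.02 (49 and 57). Windows with microRNA symbols had 0 of 11 higher, with a median of 0.33, and Gm and Rik gene models 33 of 159 higher and 1 lower, with a median of 0.57.

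Lists of brain development genes had few active windows. Of the cortical progenitor genes 2 of 6 active windows lacked an Eed summit: Vim, the intermediate filament gene of radial glia, with 146 H3K27ac and 54 Eed reads at 1066 bp from an Eed summit, and Fgfr2 with 84 and 303 at 1408 bp. Of the cortical neuron genes 2 of 9 did, Myt1 and Nfib, both transcription factor genes, with 97 and 75 H3K27ac reads, 6 and 3 Eed reads, and an Eed summit 59285 and 46311 bp away. Intermediate progenitor genes had 0 of 8, and PRC2 subunit genes 0 of 5. Cbx6 of PRC1 (92 Eed reads, 1256 bp), Setd1a, a Trithorax-group methyltransferase gene (134, 1096 bp), Pbx2, a homeobox gene (77, 1217 bp), and Cdh4, a cadherin gene (224, 1165 bp), had an Eed summit at these distances. Srgap3, of axon guidance, with 11 Eed reads at 7211 bp, and Mcm2, of the replicative helicase, with 17 at 3665 bp, lay farther off.

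Gene type differed from that of active promoters with an Eed summit. Protein-coding windows were 382 of 566 (67.5%), against 82.9%. Windows without an Eed summit were 9.40% of active protein-coding windows (exact 95% interval 8.52 to 10.3) and 19.5% of all other active windows (17.0 to 22.1). For lncRNA genes the share was 67 of 367 (18.3%, 14.4 to 22.6), for microRNA genes 12 of 50 (24%, 13.1 to 38.2) and for snRNA genes 11 of 15 (73.3%, 44.9 to 92.2). Another 83 windows matched no entry of the RefSeq gene table.

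Windows of snRNA, snoRNA and RNase P RNA genes held 5 to 32 wild type Eed reads, and low counts are favoured by the choice. The highest were Gm26202, with 32 Eed and 15 input reads at 1125 bp from an Eed summit, and Gm22513, with 31 and 25 at 1050 bp. Rn7sk, the RNA that restrains the elongation kinase P-TEFb (chromosome 9, 78174633 to 78176632), had 97 H3K27ac, 16 Eed, 19 input, 74 RNA-Pol2 and 5 IgG reads in wild type. In EedcKO it had 30 Eed, 17 input, 142 RNA-Pol2 and 18 IgG reads. Rnu1a1 and Rnu2-10, of the spliceosomal U1 and U2 families, had 65 and 81 H3K27ac and 8 and 14 Eed reads. Rpph1, the RNA of RNase P, had 64 and 12, and Snord118, the U8 snoRNA, 83 and 8. Spliceosomal RNA genes have near-identical copies, and the placing of reads from such copies by the authors was not given in the sources used here, so their counts are uncertain.

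Neighbours shared reads in many windows. Of the 566 windows 256 (45.2%) overlapped another window, 227 of them on the opposite strand, against 52.2% of active windows with an Eed summit and 20.8% of all windows. The 566 windows lay at 464 distinct H3K27ac summits, and overlapping windows are not independent. Left without overlaps, 310 windows had 12 Eed reads in the median, a wild type RNA-Pol2 summit at 13.9% and a relative RNA-Pol2 log2 ratio of 0.64. By chromosome the share of active windows without an Eed summit ran from 7.45% on chromosome 15 to 14.8% on chromosome 11.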

How the data were processed

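Promoter reads of 12 libraries were analysed. The deposited tables hold whole-number read counts per promoter window, which the authors named for RPKM, and were treated as counts; RPKM was computed from window length and the library total. The authors' summit lists, 1 per antibody library, carry a score per summit (-log10 of p or q, which one is unnamed). Per the submitters' processing notes, Bowtie2 2.4.1, MACS2 2.2.7.1, deepTools 3.4.0, ChIPseeker 1.22.1 and mm10 were used; settings were not given in the sources used here. Log2 ratios used a pseudocount of 0.5 RPKM, which understates changes of low windows, and windows with a mean of at least 1 RPKM; relative ratios subtract the median of all tested windows. All 566 windows passed this minimum. With 1 library per group no test was made. Intervals are exact 95% Clopper-Pearson intervals, for shares over windows and for RNA-Pol2 ratios over reads. They cover counting error only. They treat windows and reads as independent, though many windows overlap and reads carry no molecular identifiers, so they can be too narrow. Gene types and sequences came from RefSeq GRCm38.p6 (38982 windows matched); 27 symbols turned into dates in 1 table were restored by Ensembl identifier. Named genes were the 10 highest in H3K27ac, 8 in RNA-Pol2 over IgG, 5 at each end of the RNA-Pol2 ratio and of Eed over input, 3 on each side of each limit and up to 4 per list, among protein-coding genes; some items under this rule are not reported here. Members and gene lists were chosen with earlier results of these data known. Distances, overlaps and ratios were tested on simulated data. Scripts used python 3.11.15, numpy 2.4.6, pandas 2.3.3 and scipy 1.17.1.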

Additional observations from a re-analysis of the deposited data

How the results depend on the processing

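Most values moved with the choice of windows: of 77 alternative values 28 stayed, 48 moved and 1 reversed, the RNA-Pol2 log2 ratio. It was -0.056 less the IgG ratio and not centred (31 windows higher, 42 lower), where all tested windows had -0.34, and 0.29 relative to the all-window median of that ratio (66 higher, 9 lower). RNA-Pol2 summits were counted within 1 kb of the window centre in every setting. Summits of the choice within 500 bp gave 883 windows, 11.4 RPKM of wild type Eed, 17.1 RPKM of RNA-Pol2, RNA-Pol2 summits at 33.7%, 75.9% protein-coding, a ratio of 1.002 with 446 higher and 19 CpG. Within 2000 bp, wild type Eed was 2.79 and RNA-Pol2 13.5 RPKM, summits 13.5%, coding 58.9%, the ratio 0.63 and 4 lower. H3K27ac summits of at least the median score left 321 windows (RNA-Pol2 16.1 RPKM, summits 28.0%, ratio 0.86, 111 higher). Without an Eed summit of either genotype within 2000 bp there were 336 (Eed 3.04 and RNA-Pol2 13.7 RPKM, summits 14.9%, ratio 0.71, 97 higher). Leaving out overlapping windows left 310 (Eed 3.04, RNA-Pol2 14.4 RPKM, summits 13.9%, ratio 0.64, 71 higher); its 14 CpG cover 78.9% of coding windows, under the 80% set for a comparison. Protein-coding windows alone had 15.7 RPKM of RNA-Pol2, summits at 23.6%, a ratio of 0.87 and 0 lower. By totals the ratio was 0.38 (26 higher, 2 lower); a pseudocount of 1 left 0 lower. With the library labelled EedcKO H3K27me3 in place of EedcKO RNA-Pol2 it was 0.027 (4 higher, 2 lower). The cause of these moves was not tested. The CpG median stayed below that of active promoters with an Eed summit at each distance and score tried (16, 19, 16, 17 and 16 against 25, 24, 24, 25 and 24). The alternatives of the CpG count, of the centred IgG ratio, of the label and of coding windows were chosen after seeing the data. No paired analysis was possible because each genotype has 1 library per target.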
